A study of Homo sapiens with 4 samples.

Results

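PIR and 9 other genes known as targets of the transcription factor NRF2 (NQO1, GCLM, GCLC, TXNRD1, HMOX1, GPX2, AKR1C1, TXN and PRDX1) were followed in 2 human colorectal cancer cell lines exposed to a DNA demethylating drug. PIR was chosen by its measured values here, as 1 of the 3 genes whose log2 ratio of channel 2 over channel 1 was −1 or lower on both HT-29 arrays. This ratio is treated over untreated RNA only if channel 2 holds treated RNA on both arrays, which is unsettled for array 2. In the channel order of the labels 0 genes were at least 2-fold lower on both. The other 9 genes were named for their known control by NRF2, to see whether they were lower as well. Spots were taken where the array annotation gave 1 of these symbols and no other. This found 10 oligonucleotide spots for 9 of the 10 genes, with TXN on 2 of them, out of 29640 spots that were not controls and 13000 named genes. AKR1C1 had no spot under its own symbol, so its expression was not analysed here and it appears only among the promoters, and a spot that carries HMOX1 together with other symbols was not used.

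The lines were DLD-1 and HT-29, each grown in RPMI1640 with serum. Treated cells grew for 24 h and were then kept for 96 h with 1 µM 5-aza-2'-deoxycytidine, which is built into DNA and traps DNA methyltransferases. Untreated cells of each line served as reference. The study searched for genes that methylation had silenced and the drug raised. Treated and untreated RNA of a line were hybridised together on 2 two-colour arrays, array 1 with treated RNA in Cy5 and array 2 with the dyes exchanged, so 4 arrays were measured. No label names a separate culture. Each line's pair of arrays is therefore 1 replicate, values are mean ± SD over these 2 hybridisations, and no p-value exists within a line.

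The labels and scanner files leave unsettled which file channel of array 2 carries treated RNA, since the labels list it first there and the file columns name no dye. Array 1 reads the same way in either case. Its treated RNA is in Cy5 in both lines, so treatment and dye cannot be told apart on array 1 alone. Values on array 2 are given with channel 2 as treated, the working reading, and then in the channel order of the labels, which turns the sign of array 2. Across 9096 genes the ratios of the 2 DLD-1 arrays correlated at −0.40 under the working reading, and so at 0.40 in the labels' order. For HT-29 the correlation was 0.02. Array 1 of DLD-1 and array 1 of HT-29 correlated at 0.48 in either reading. These genes are not independent replicates, and none of these values settles the direction. Between 22104 and 25825 probes per array had a channel above background, meaning an intensity over the local background by more than 2 of its SD. Markers of colorectal epithelium passed that limit in untreated RNA on both arrays for 10 of 12 genes in DLD-1 and 11 of 12 in HT-29, and CDX1, a defining transcription factor of intestine, did not in either line. Markers of leukocytes passed for 4 of 4 and 3 of 4, so the limit alone does not tell cell types apart. With so few arrays, every value below is imprecise.

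NRF2, encoded by NFE2L2, drives genes that defend cells against oxidants and electrophiles. In unstressed cells KEAP1 holds it for CUL3-dependent ubiquitination and degradation. When KEAP1 is modified by electrophiles, NRF2 pairs with small MAF proteins on antioxidant response elements, and BACH1 can occupy the same elements and repress them. Its targets make glutathione, reduce quinones and peroxides and keep thioredoxin reduced, and they are well known in intestinal epithelium, which meets dietary electrophiles. Pirin, the product of PIR, is an iron-binding nuclear protein of the cupin superfamily, known to bind NFI transcription factors and BCL3.

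Antioxidant response elements hold a conserved core, searched here on both strands as TGACNNNGC, and as TGAGNNNGC for the variant. The search covered RefSeq promoters of GRCh38.p14, from 250 bases before to 50 after each start site. Of the 10 genes, 8 had promoter entries and TXNRD1 had 2 of them. TGACNNNGC lay in the promoters of 4 of the 8 genes (PIR, GCLM, TXNRD1 and GPX2), against 13.3% of 35116 promoters of this length. TGAGNNNGC lay in 4 of the 8 (NQO1, GCLM, TXNRD1 and AKR1C1), against 18.3%. Either form was found for 6 of the 8, against 29.1% of all promoters, and for neither GCLC nor TXN. One match is printed for each of the 5 genes with both a spot and a match, on the gene's own strand, 5′ to 3′, with the 9 matching bases in capitals and 10 bases on each side. In these printed matches PIR has the same core as GCLM, TXNRD1 and GPX2, and NQO1 has the variant, which GCLM and TXNRD1 also carry. Bases outside this stretch were not searched, so an element of NQO1 or another gene may lie beyond it.
PIR, chrX:15493289-15493317, minus strand, match at 27 to 35 bases after the start site: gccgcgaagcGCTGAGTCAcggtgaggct
NQO1, chr16:69726661-69726689, minus strand, match from −119 to −111: tcctggagctGCAGCCTCAgcatcctccg
GCLM, chr1:93909446-93909474, minus strand, match from −34 to −26: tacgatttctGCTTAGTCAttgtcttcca
TXNRD1, chr12:104286920-104286948, plus strand, match from −102 to −94: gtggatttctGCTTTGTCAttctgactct
GPX2, chr14:64942849-64942877, minus strand, match from −122 to −114: acctgtttttGCTAAGTCAtcctggggat
In the printed matches of PIR, GCLM, TXNRD1 and GPX2 the core stands on the opposite strand. There the PIR match reads TGACTCAGC, that of GCLM TGACTAAGC, that of TXNRD1 TGACAAAGC and that of GPX2 TGACTTAGC. The printed NQO1 match is on the opposite strand too, and TXNRD1 also has a match of the core on its own strand. A match describes letters and does not show that NRF2 binds there in these cells.

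The drug acts on CpG methylation, so the CpG content of the same 300 bases was counted. PIR had 25 CpG sites, more than 68% of all promoters, whose median was 14. GCLM (41), TXN (34) and GCLC (32) had more sites than PIR. TXNRD1 had 27 and 12 in its 2 promoters, NQO1 had 14, GPX2 had 4 and AKR1C1 had 3. The genes thus ran from CpG-poor to CpG-rich promoters, and their methylation was not analysed here.

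PIR was lower in treated RNA of HT-29 on array 1, which both readings take the same way. Treated RNA is in Cy5 there, so treatment and dye cannot be told apart. The signal of PIR was low throughout. On HT-29 array 1 its background-subtracted signal was 398 scanner units in untreated and 176 in treated RNA, with a log2 ratio of −1.02 after background correction and intensity-dependent (loess) normalization. On HT-29 array 2 the signal was 1740 in channel 1 and 726 in channel 2, a log2 ratio of −1.19 of channel 2 over channel 1. Channel 2 of that array stood 1.24 background SD over its local background and was not above the limit, while the other 3 HT-29 signals of PIR were. Under the working reading the HT-29 mean was −1.11 ± 0.12, where array 1 alone had treated signal above background, so its size rests partly on signal at background. In the labels' order array 2 gave 1.19 and the mean was 0.08 ± 1.56, so the 2 arrays then pointed in opposite ways. PIR was chosen for this value, so it is a description with no test.

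In DLD-1 PIR could not be measured on both arrays. Its signal on array 1 was 181 in untreated and 145 in treated RNA, 1.57 and 0.914 background SD over background, and the log2 ratio of −0.47 compares signals at background. On DLD-1 array 2 both channels were above background at 445 and 297, with a log2 ratio of −0.08. PIR therefore entered no test over both lines, and whether the lines differ was not tested.

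PIR shares its printed block of 622 spots with the second TXN spot. The block's median log2 ratios were 0.25 and −0.07 on HT-29 arrays 1 and 2, and PIR lay 1.27 and 1.12 below them. With all block medians set to 0, the HT-29 mean of PIR was −1.20 under the working reading. Under that reading, without this centring, 3 of 10387 genes measured in HT-29 (0.0289%) were at least 2-fold lower on both arrays. The others were NCAPD2 (−3.49 and −1.23), a condensin subunit, and ANXA13 (−1.05 and −1.73), an annexin of intestinal cells. Just outside the limit lay NMI (−1.16 and −0.99), an interferon-induced protein, and SMN1 (−0.99 and −1.24), of the survival of motor neuron complex.

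**Figure D1:**
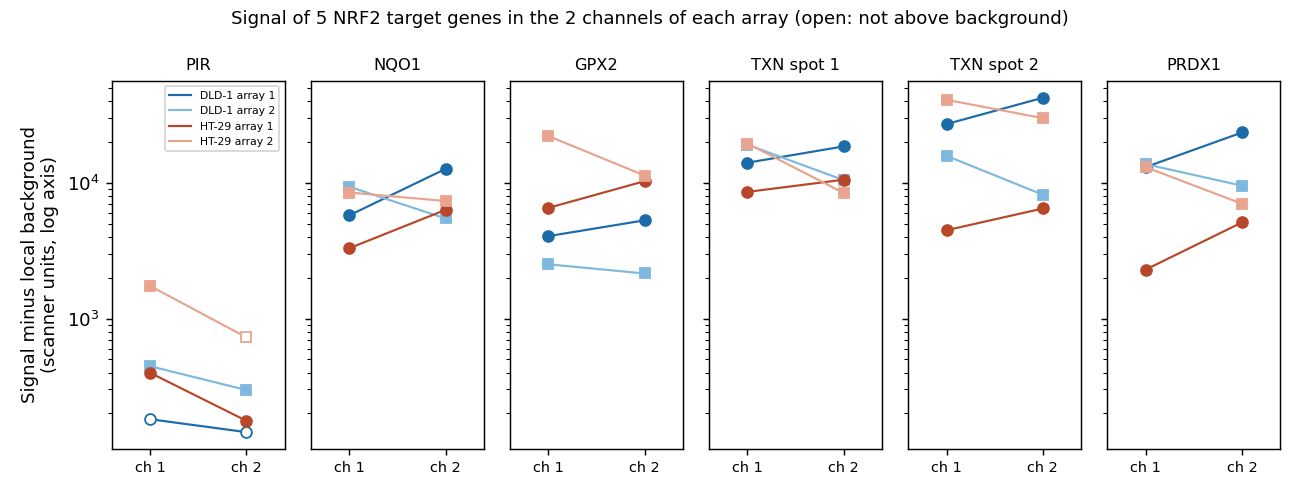
Signal minus local background (scanner units, log axis) in channel 1 and channel 2 for PIR, NQO1, GPX2, the 2 TXN spots and PRDX1, with 1 line per array and open symbols where a channel was not above background. PIR signal is lower in channel 2 than in channel 1 on all 4 arrays, while the NQO1, GPX2, TXN and PRDX1 spots are brighter in channel 2 on both array 1s and dimmer in it on both array 2s.

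Of the 9 genes with spots, 5 were measured in HT-29 (PIR, NQO1, GPX2, TXN and PRDX1), which required a channel above background on both arrays. In DLD-1 the 5 measured were NQO1, GCLM, GPX2, TXN and PRDX1. A gene that passes through 1 bright channel alone can enter here, and PIR on HT-29 array 2 is such a case, as is GCLM on DLD-1 array 1.

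On HT-29 array 1, which both readings take the same way, the lower ratio of PIR was not shared. Treated RNA gave higher ratios for 4 of 4 other measured targets, PRDX1 (1.13), NQO1 (0.89), GPX2 (0.44) and TXN (0.25), against 53.7% of 10387 genes higher on this array. On the same array 0.664% of genes were at least 2-fold lower, as PIR was, and 4.05% were at least 2-fold higher, as PRDX1 was. A single array has no replicate, and with treated RNA in Cy5, treatment and dye cannot be told apart on it. These counts describe the array and test nothing.

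On both HT-29 arrays together PIR also stood apart from the other 4, in a way that depended on the reading. Under the working reading 1 of 5 measured genes, PIR, was lower on both arrays, against 28.4% of all genes. The remaining 4 were higher on array 1 and lower on array 2, a pattern held by 25.7% of all genes, and the median of these 4 was 0.11, beside −0.00 over all genes. TXN counts here, in both readings, by the mean of its 2 spots. Its second spot alone (0.46 and 0.27 under the working reading) does not have this pattern. In the labels' order the same 4 genes were higher on both arrays, against 25.7% of all genes, with a median of 0.48 beside 0.04. PIR was then lower on array 1 and higher on array 2, and 0 of the 5 were lower on both, against 18.0% of all genes. PIR did not have the same pair of signs as NQO1, GPX2, TXN or PRDX1. The readings turn array 2 for every gene alike, so this holds in both by construction and is no separate support. PIR was also chosen for its signs, and with 1 replicate the difference between these genes has no test.

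NQO1 reduces quinones by a two-electron step and is a standard readout of NRF2 activity. Its HT-29 signals were 3299 and 6329 in channels 1 and 2 of array 1, and 8497 and 7351 on array 2. In DLD-1 they were 5761 and 12686 on array 1, and 9372 and 5468 on array 2. Both array 1s thus had positive ratios of like size, with log2 ratios of 0.89 for HT-29 and 0.84 for DLD-1. The ratios on array 2 were −0.11 and −0.28, which gave means of 0.39 ± 0.71 and 0.28 ± 0.79. In the labels' order HT-29 had 0.50 ± 0.55 and DLD-1 0.56 ± 0.39, with 4 of 4 arrays positive.

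Glutathione synthesis was covered poorly. GCLC, the catalytic subunit of glutamate-cysteine ligase, was above background on 0 of 4 arrays, so it has no usable ratio. GCLM, the modifier subunit of that enzyme, was above background only in DLD-1, where the signals were 197 and 784 on array 1 and 385 and 393 on array 2. Channel 1 of array 1 was not above background. The log2 ratios were 0.79 and 0.32, a mean of 0.55 ± 0.33, and 0.23 ± 0.78 in the labels' order. GCLM entered on array 1 through its treated channel alone, so that ratio is set against signal at background, and its sign on array 2 follows the reading.

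GPX2, the glutathione peroxidase of gastrointestinal epithelium, was bright in both lines. HT-29 array 1 gave 6545 in channel 1 and 10301 in channel 2, and array 2 gave 22158 and 11329. The log2 ratios of 0.44 and −0.49 are nearly mirror images, with a mean of −0.03 ± 0.66, and in the labels' order they became a mean of 0.47 ± 0.04. In DLD-1 the ratios were 0.15 and −0.11, with means of 0.02 ± 0.18 and 0.13 ± 0.03 under the 2 readings. GPX2 carries the core element, and its HT-29 value was not lower on array 1 as that of PIR was.

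Members of the thioredoxin system gave mixed values. PRDX1, a peroxidase that thioredoxin recharges, had HT-29 signals of 2296 and 5114 on array 1 and of 13055 and 7018 on array 2. Its HT-29 log2 ratios were 1.13 and −0.65, a mean of 0.24 ± 1.26, or 0.89 ± 0.34 in the labels' order. PRDX1 had the widest gap between HT-29 arrays among the measured genes under the working reading. In DLD-1 its ratios were 0.39 and 0.12, a mean of 0.26 ± 0.19, and 0.13 ± 0.36 in the labels' order.

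TXN, thioredoxin itself, averages 2 spots that disagreed on HT-29 array 2. Spot 1 had log2 ratios of −0.04 and −0.16 on the DLD-1 arrays and 0.04 and −0.81 on the HT-29 arrays. Spot 2, printed in the block of PIR, had 0.05 and −0.29, then 0.46 and 0.27. The gene means were −0.11 ± 0.17 for DLD-1 and −0.01 ± 0.37 for HT-29. They were 0.12 ± 0.16 and 0.26 ± 0.01 in the labels' order. The last of these averages spots that differ in sign on array 2. TXNRD1, the reductase that restores thioredoxin, was above background on 0 of 4 arrays, so its ratios, of which the DLD-1 array 1 value was 2.05, compare signals at background.

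HMOX1, heme oxygenase, was above background only on the dye-exchanged arrays. Its DLD-1 array 2 signals were 762 and 670 with a log2 ratio of 0.14, and its HT-29 array 2 signals were 386 and 164 with −0.67, where channel 2 was at background. Neither array 1 measured HMOX1, so whether treatment left it higher or lower could not be read.

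**Figure D2:**
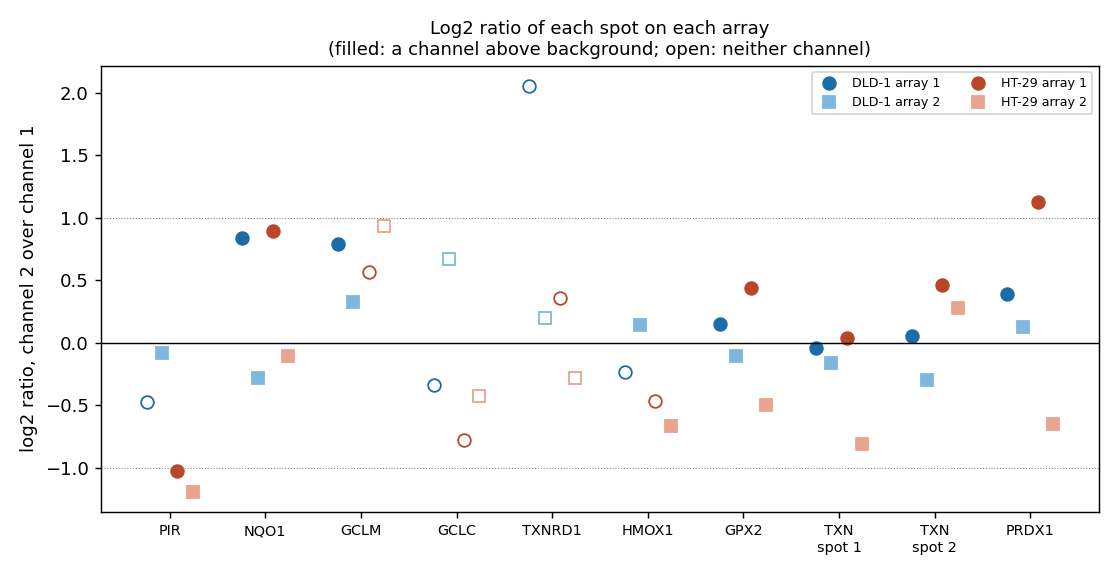
Log2 ratio of channel 2 over channel 1 for each of the 10 spots (y axis) on each array, filled where a channel was above background and open where neither was. PIR is the only filled spot at or below −1, at −1.02 and −1.19 in HT-29, and on HT-29 array 1 the filled spots of NQO1, GPX2, TXN and PRDX1 lie above 0.

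**Figure D3:**
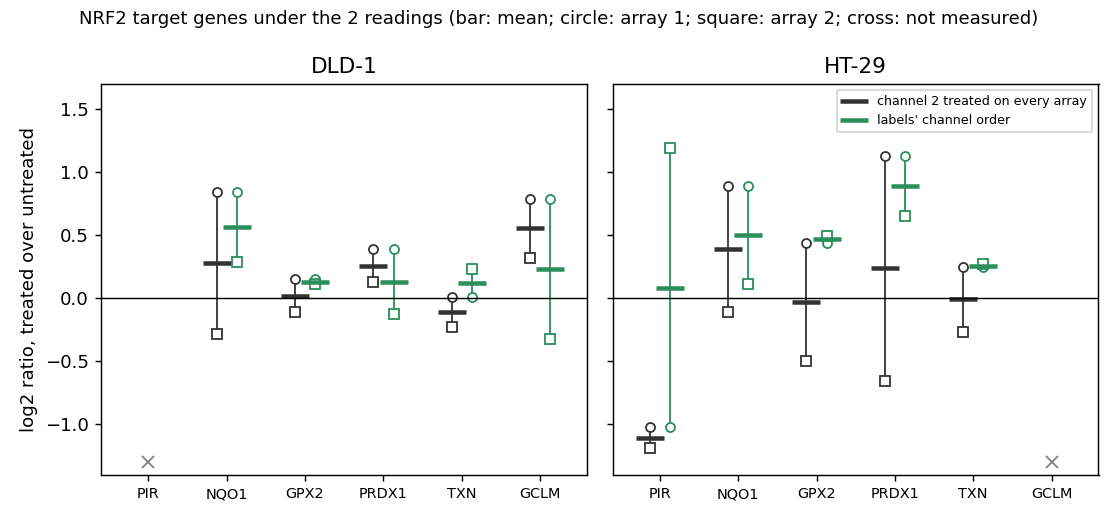
Treated over untreated log2 ratio of the measured genes in DLD-1 and HT-29 under both readings, with a circle for array 1, a square for array 2, a bar for their mean and a cross where a gene was not measured. In HT-29 the green values of the labels' order put both arrays of NQO1, GPX2, PRDX1 and TXN above 0 and spread PIR from −1.02 to 1.19.

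The comparison over both lines tested the mean of the 2 line values against 0 with limma, two-sided, with Benjamini-Hochberg adjustment over 9096 genes. It could take NQO1, PRDX1, GPX2 and TXN, and 0 of these 4 passed an adjusted p of 0.05, where 21 of all genes (0.231%) did. With limma 0 of the 4 had an unadjusted p under 0.05, against 456 of all genes. NQO1 had a mean log2 ratio of 0.33 (95% interval −0.09 to 0.76, adjusted p = 0.988) and PRDX1 one of 0.25 (−0.18 to 0.67, adjusted p = 0.988). GPX2 was at −0.00 (−0.43 to 0.42, adjusted p = 0.999) and TXN at −0.06 (−0.48 to 0.36, adjusted p = 0.996). Each interval, on the log2 scale, reaches below 0 and above it.

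In the labels' order 0 of the 4 passed as well, against 59 of 9096 genes (0.649%), with 2 at an unadjusted limma p under 0.05 against 1003 of all genes. These were NQO1, with a mean of 0.53 (95% interval 0.07 to 1.00, adjusted p = 0.365), and PRDX1, with 0.51 (0.04 to 0.98, adjusted p = 0.393). NQO1 was positive on 4 of 4 arrays in that reading. GPX2 (0.30, adjusted p = 0.681) and TXN (0.19, adjusted p = 0.829) were further from the limit. The intervals rest on 1 variance that limma shared between all genes, since 2 line means give an exact sign-flip test no two-sided p under 0.5.

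Regulators of the pathway gave no gene past the limma test in either reading, of 12 tested from 16 listed. Unadjusted p was under 0.05 for 3 of them under the working reading (456 of all 9096 genes, or 5.01%) and for 2 in the labels' order (1003 of 9096, or 11.0%). The median of the 12 was 0.15, beside 0.01 over all genes, and 0.09 beside 0.05 in the labels' order. NFE2L2, which encodes NRF2, had log2 ratios of 0.51 and −1.13 on the DLD-1 arrays and 0.17 and −1.33 on the HT-29 arrays. These gave a mean of −0.45 (adjusted p = 0.968), which turned to 0.78 in the labels' order (adjusted p = 0.0951), so its direction follows the reading. On both array 1s NFE2L2 was higher in treated RNA.

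KEAP1, which holds NRF2 for degradation, was positive on 4 of 4 arrays under the working reading (0.13, 0.16, 0.28 and 0.55, mean 0.28, limma adjusted p = 0.988) and at −0.08 in the labels' order. BACH2, a repressor related to BACH1, had a mean of 0.54 (adjusted p = 0.656), which became −0.31. NFE2L3, a relative of NRF2, had 0.50 (adjusted p = 0.734) and 0.41 under the 2 readings. In HT-29 alone 4 of 13 regulators (30.8%) were higher and 3 (23.1%) lower on both arrays under the working reading, near the 28.0% and 28.4% of all genes. In DLD-1 7 of 14 were higher and 0 lower, against 15.8% and 16.9% of all genes. With block medians set to 0 this DLD-1 count was 4 higher and 1 lower, where 18.2% of all genes were higher, and in the labels' order 5 higher and 2 lower, where 39.2% were.

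Other NRF2 targets, listed apart from the 10 genes, gave no pass among 27 tested of 37 listed, in either reading. Unadjusted limma p was under 0.05 for 4 in each reading, or 14.8%, against 5.01% and 11.0% of all genes. Their median was 0.11 over both lines, and 0.24 in the labels' order. In HT-29, under the working reading, 17 of 30 (56.7%) were higher on both arrays against 28.0% of all genes. On both arrays 3 (10%) were lower, against 28.4% of all genes. None was at least 2-fold lower on both, as PIR and 0.0289% of all genes were. Cell type markers in the same line and reading were higher on both arrays for 5 of 11 genes of colorectal epithelium (45.5%) and 3 of 4 of mesenchyme (75%). For leukocytes this was 1 of 3 (33.3%) and for endothelium 0 of 1. Whether these markers bear on the result was not tested. The HT-29 median of the other targets was 0.26. It was 0.05 with block medians set to 0, where 12 of 30 (40%) were higher on both against 22.7% of all genes, and 0.04 in the labels' order, where 6 of 30 (20%) were higher against 25.7%. On HT-29 array 1, which both readings share, 23 of the 30 were higher, against 53.7% of all genes. Their median there was 0.35 beside 0.04 over all genes. The lower PIR ratio on that array thus did not extend to most of these genes either.

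In DLD-1 3 of 28 other targets (10.7%) were higher on both arrays against 15.8% of all genes under the working reading, and 16 of 28 (57.1%) against 39.2% in the labels' order. Array 1 had 19 of the 28 higher against 54.9% of all genes, with a median of 0.33 beside 0.05 over all genes.

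AKR1C2, an aldo-keto reductase close to AKR1C1, had a mean of 0.67 ± 0.30 in HT-29 and 0.36 ± 1.03 in DLD-1 (mean over lines 0.52, limma adjusted p = 0.706). Near-identical AKR1C genes may share signal on an array. GSTM3, a glutathione transferase, was at 0.68 and 1.53 on the HT-29 arrays, a mean of 1.10 ± 0.60, and at −0.09 ± 0.69 in DLD-1 (adjusted p = 0.726). CBR1, a carbonyl reductase, had 0.58 on HT-29 array 1 and 0.57 on array 2, and 1.17 and −0.50 in DLD-1 (adjusted p = 0.917). FTL, the light chain of ferritin, was positive on 4 of 4 arrays (1.11, 0.05, 0.48 and 0.30, adjusted p = 0.772). In the labels' order the means over both lines were 0.47 for AKR1C2, 0.03 for GSTM3, 0.42 for CBR1 and 0.31 for FTL. These 4 had the largest means of the list under the working reading, and none passed. All were higher on both array 1s, but they were picked for means that include these values, so this is no separate support. In the labels' order PRDX6, a peroxiredoxin chosen after its values were seen, had the largest mean of the list (0.81, limma adjusted p = 0.0757).

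Antioxidant enzymes under mainly other control gave no pass among 17 tested of 20 listed, with 2 at an unadjusted limma p under 0.05 (11.8%, against 5.01% of all genes) and 3 in the labels' order (17.6% against 11.0%). The median was −0.09, and 0.09 in the labels' order. GPX3, the plasma glutathione peroxidase, had a mean of 0.47 that turned to −0.46 in the labels' order. MSRA, a methionine sulfoxide reductase, had 0.42, and −0.11 in the labels' order. PRDX2, a peroxiredoxin of the cytosol, had −0.36, and 0.57 in the labels' order. GLRX2, a glutaredoxin, was at −0.97 and −0.69 on the HT-29 arrays under the working reading, a mean of −0.83 ± 0.20, and at 0.27 ± 0.32 in DLD-1. Its HT-29 mean was −0.14 in the labels' order, and its limma adjusted p over both lines was 0.988 under the working reading. In HT-29 5 of 17 (29.4%) were higher and 4 (23.5%) lower on both arrays under the working reading, near the 28.0% and 28.4% of all genes.

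Partners of pirin and the NF-kB family were represented by 5 tested genes of 11 listed, with a median of 0.12 (0.22 in the labels' order). None passed limma in either reading and 0 had an unadjusted p under 0.05. RELA, the transactivating subunit of NF-kB, had a mean of −0.32, and 0.04 in the labels' order. NFKB1, its usual partner, had 0.30 and 0.27. NFKBIA, their inhibitor, had 0.17 and 0.22, and NFIX, a member of the NFI family that pirin binds, −0.13 and −0.34. No gene of this list was at least 2-fold lower on both arrays of a line under the working reading, as 0.00980% of all genes were in DLD-1.

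**Figure D4:**
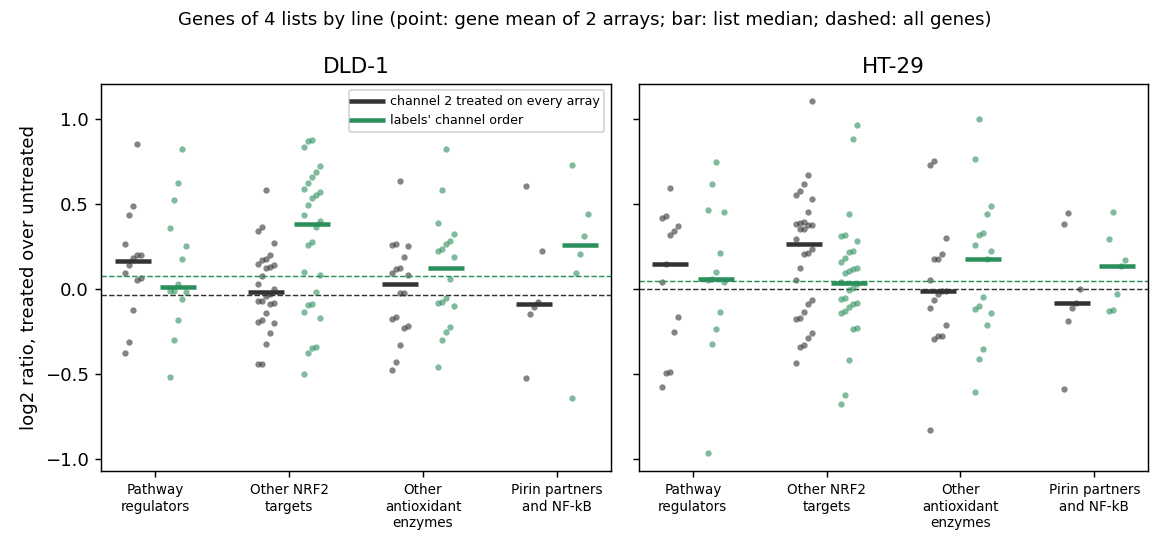
Gene means over the 2 arrays of a line (log2 treated over untreated, y axis) for the measured genes of the 4 lists in DLD-1 and HT-29, dark for the working reading and green for the labels' order, with bars at list medians and dashed lines at the medians of all genes. The HT-29 median of the other NRF2 targets is 0.26 in dark and 0.04 in green, and in DLD-1 it is −0.02 in dark and 0.38 in green.

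The genes with ratios nearest to those of PIR over the 4 arrays were ranked by root mean square difference in log2 ratio among 9096 genes, with PIR at background in both channels of DLD-1 array 1 and in channel 2 of HT-29 array 2. They were RPS13 (0.224), a ribosomal protein, AGTPBP1 (0.239), a peptidase that trims polyglutamate from tubulin, MCM6 (0.253), a subunit of the replicative helicase, NMI (0.255) and NUSAP1 (0.267), a spindle-associated protein. None passed limma over both lines (adjusted p from 0.179 for MCM6 to 0.848 for NUSAP1). MCM6 had −0.96 and −1.18 on the HT-29 arrays. The measure includes the HT-29 values for which PIR was chosen, so it describes which genes resemble PIR and supports nothing about the NRF2 targets.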

How the data were processed

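The deposited scanner files hold, per spot and channel, the intensity, local background and background SD on a linear scale, and the log2 ratios that the authors computed (channel 1 over channel 2), per the file headers. The series' value table holds these ratios with the sign reversed and was not used. The sources used here name neither scanner nor software. The deposited intensity was background-corrected with normexp (offset 50) and normalized by loess within each of the 4 arrays in R 4.3.3 with limma 3.58.1. Control and bad spots took no part in the loess fit, and the 49 bad spots were left out. Spots carrying several symbols (447 probes) stayed unnamed. A gene, the mean of its probes, was measured where a channel exceeded background by 2 SD on every array used. The arrays of a line were averaged, and limma (lmFit, eBayes) tested the line means against 0. The probes fall in 48 printed blocks.

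The 10 genes and all lists were chosen with earlier results of these data known, and so was the working reading of the channels, in part from the strongest probes. From each list the 4 genes with the largest mean over both lines in size were named, along with the 5 nearest to PIR. Alternatives were the labels' channel order, the authors' deposited log2 ratios, median centring, block medians set to 0, other filters, the brightest probe, and each array left out. The labels' order combined with block medians set to 0 was chosen after seeing the data. Only the averaging of arrays and the limma test were tried on simulated gene ratios, drawn independently for each array. Background correction, normalization, the background limit and the channel reading were not simulated. Markers of mesenchyme passed the background limit for 4 of 5 genes in untreated DLD-1 and 3 of 5 in HT-29, and of endothelium for 1 of 2 and 0 of 2. Methylation-specific PCR was not analysed here.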

Additional observations from a re-analysis of the deposited data

How the results depend on the processing

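Genes called over both lines numbered 21, and 59 in the labels' order, 12 with the authors' deposited ratios, 4 with block medians set to 0, 40 with no filter, 11 with both channels above background and 1 in the labels' order with block medians set to 0. Leaving out 1 array gave 5 to 357, namely 8 when array 1 of DLD-1 was left out, 357 for its array 2, 15 for array 1 of HT-29 and 5 for its array 2. None of NQO1, PRDX1, GPX2 and TXN passed under any of these alternatives, where the lowest adjusted p, without DLD-1 array 2, was 0.0925 for NQO1. Over the 12 alternatives their adjusted p ran up to 1.000, from 0.0925 for NQO1, 0.105 for PRDX1, 0.441 for GPX2 and 0.364 for TXN.

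PIR in HT-29 was −1.11, and 0.084 in the labels' order, −0.076 with block medians set to 0 as well, and −1.19 to −1.02 with 1 array left out. With both channels required above background, and with the deposited ratios, PIR had no mean over the 2 arrays. Its deposited log2 ratio, as channel 2 over channel 1, was −1.25 on HT-29 array 1 and missing on array 2. Genes of the 10 that were lower on both HT-29 arrays numbered 1 of 5 measured (28.4% of all genes), and 0 of 5 in the labels' order (18.0%). They numbered 0 of 4 with the deposited ratios and 0 of 4 with both channels above background, both without PIR. The count was 3 of 9 with no filter, and 0 of 5 in the labels' order with block medians set to 0 (21.9% of all genes). With 1 array left out they numbered 1 to 6, the 6 being all 6 genes measured on HT-29 array 2 alone under the working reading. In DLD-1 the count was 0 of 5 (16.9% of all genes), and 1 of 9 with no filter. With 1 array left out it was 0 to 4, the 4 being of 7 measured on DLD-1 array 2 alone. The share of all genes that were lower was not counted for the deposited ratios, for the other filters or for an array 2 alone. Fewer or more genes measured is part of these filters' construction, and other causes were not tested.

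The GPX2 mean of −0.00 turned to 0.30 in the labels' order and to 0.28 with block medians set to 0 as well, and ran from −0.24 to 0.23 with 1 array left out. The TXN mean of −0.06 turned to 0.19 and 0.24 in the same settings and to 0.12 with the brightest probe, and ran from −0.19 to 0.069 with 1 array left out. The PRDX1 mean of 0.25 ran from −0.20 to 0.69, below 0 without HT-29 array 1. The NQO1 mean was above 0 in all 12 alternatives, from 0.05 to 0.62. No paired analysis was possible because the labels number no arrays that could be paired across the lines, and treated and untreated RNA are already compared within each array. Low signal over background limits PIR, GCLM and HMOX1, and leaves GCLC and TXNRD1 unmeasured.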
